A study of Mus musculus with 12 samples.

Results

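The enzymes that build heme were followed through the myeloid differentiation of mouse progenitors, together with Hmox1, the inducible heme oxygenase that breaks heme down. The members were taken by name from the deposited expression table: Alas1, Alas2, Alad, Uros, Urod, Cpox, Ppox, Fech and Hmox1. All 9 were listed, among 23309 genes, and the rule for them uses their function and no measured value.

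RNA-seq was performed on wild-type (WT) and HMGN1-OE progenitors before (0 h) and 36 or 96 h after estradiol (E2) was withdrawn, with 2 libraries in each of 6 groups and 12 in all. Both genotypes were CD117+ bone marrow cells on a C57BL/6 background, WT cells from littermates and HMGN1-OE cells from mice carrying a human HMGN1 transgene. Both carried a retrovirus for HoxB8 joined to an estrogen receptor (ER-HoxB8), which holds cells immature while E2 is present, and both grew with interleukin 3. The promoter of the transgene, the age of the mice and the number of animals or clones behind a culture were not given in the sources used here, and p-values measure only the spread between these libraries.

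Heme is made in steps that start in mitochondria, pass through the cytosol and end in mitochondria again. The condensation of glycine with succinyl-CoA by an aminolevulinate synthase, Alas1 in most tissues and Alas2 in erythroid cells, limits the rate, and heme itself represses Alas1. Granulocyte precursors need heme for myeloperoxidase (Mpo), the green enzyme of the primary granules, and for cytochrome b558 (Cyba and Cybb), the membrane core of the NADPH oxidase. The listed values, in FPKM (fragments scaled by transcript length and library), were normalized by the authors to ERCC RNAs added to the RNA of a fixed number of cells, so they stand for RNA per cell. In such bulk samples fewer cells of a type and less RNA per cell cannot be told apart.

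The promoters of Alas1, Alas2, Cpox and Ppox are shown because Alas1 and Alas2 were the most and the least abundant members, and Cpox and Ppox, which act one after the other, had changes of opposite sign relative to the median gene by 96 h. Sequences are from RefSeq (GRCm38.p6), 5′ to 3′ on the strand of the gene, and 7 of 9 members had a promoter entry. The 250 bases before each start are given, with matches to the motifs searched in capitals.
Alas1, minus strand of chr9:106247955-106248204: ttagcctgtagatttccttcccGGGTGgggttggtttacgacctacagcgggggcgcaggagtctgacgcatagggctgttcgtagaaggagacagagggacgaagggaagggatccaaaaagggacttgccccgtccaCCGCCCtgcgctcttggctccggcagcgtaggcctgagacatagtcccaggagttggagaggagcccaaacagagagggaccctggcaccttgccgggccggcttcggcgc
Alas2, plus strand of chrX:150547167-150547416: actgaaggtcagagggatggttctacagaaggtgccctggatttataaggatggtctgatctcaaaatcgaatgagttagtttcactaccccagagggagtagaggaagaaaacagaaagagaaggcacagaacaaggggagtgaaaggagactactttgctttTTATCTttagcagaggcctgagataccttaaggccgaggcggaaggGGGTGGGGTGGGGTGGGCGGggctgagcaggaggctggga
Cpox, plus strand of chr16:58669958-58670207: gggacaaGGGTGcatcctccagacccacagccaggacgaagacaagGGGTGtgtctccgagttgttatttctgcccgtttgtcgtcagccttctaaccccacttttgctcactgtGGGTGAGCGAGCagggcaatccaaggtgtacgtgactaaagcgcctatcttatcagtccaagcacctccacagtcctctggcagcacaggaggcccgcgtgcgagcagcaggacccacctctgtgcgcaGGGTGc
Ppox, minus strand of chr1:171281187-171281436: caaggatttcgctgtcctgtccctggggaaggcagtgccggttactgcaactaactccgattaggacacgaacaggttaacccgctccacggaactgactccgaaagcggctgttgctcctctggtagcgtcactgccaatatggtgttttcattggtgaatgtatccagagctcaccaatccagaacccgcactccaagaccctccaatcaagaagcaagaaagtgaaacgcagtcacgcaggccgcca

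The search took both strands of 300 bases, 250 before and 50 after the start, for the GATA motif AGATAA, the CACCC box CACCC, the NRF1 core GCATGCG, the E-box CACGTG, the GC box GGGCGG and TGANNNNGC, the core of the antioxidant response element. Of 32851 promoters, 11.2% held the GATA motif, 57.5% the CACCC box, 3.58% the NRF1 core, 7.15% the E-box, 35.7% the GC box and 41.3% the antioxidant core. Alas1 held the NRF1 core, the rarest of the 6, on both strands shortly after the more upstream of its 2 listed starts, whose promoter is printed above, and before the other start, shown in 30 bases with the overlapping matches in capitals (minus strand of chr9:106247906-106247935): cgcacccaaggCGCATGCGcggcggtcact. NRF1 is a transcription factor of genes for mitochondrial respiration. Alas2 held 1 GATA motif and 3 CACCC boxes before its start, the last of them overlapping a GC box, and GATA and CACCC sites are the classic pair of erythroid promoters. Cpox held 4 CACCC boxes, of which 1 overlaps the antioxidant core, and a GATA motif just after its start, shown with that motif in capitals (plus strand of chr16:58670200-58670229): cagggtgcagtcTTATCTgctctttccggg. In the window of Ppox the GC box, 42 bases after the start, was the only match. A match is a description of these letters and does not show binding.

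The libraries are called here by the last digit of their columns, 0 or 1. The sample titles number the replicates 1 and 2 in each group, but nothing links the digits to these numbers. Libraries were therefore not paired between groups. Summed FPKM per library ran from 228955 to 1442570 and the depth is unknown, so no counting error can be given. Libraries were not always nearest to the other library of their group. By the median absolute difference per gene, relative to the median gene of each library, 7 of 12 were nearest to a library of another group, and 2 of them, WT 36 h library 1 and WT 0 h library 1, to one of another time. WT 36 h library 1 was 0.173 (log2) from WT 36 h library 0 and 0.107 from WT 0 h library 0, while WT 0 h library 1 was 0.148 from its partner and 0.136 from each WT 36 h library. The widest group was WT 96 h (0.27). Values without WT 36 h library 1, or of each WT library, are given beside the results at 36 h. The mouse Hmgn1 row (85.7 and 141 FPKM in WT, 201 and 97.6 in HMGN1-OE cells at 0 h) overlapped between the genotypes, and the human transgene was not analysed here.

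Marker genes were examined for other cells the cultures could hold. Of 12 erythroid markers 7, among them Slc4a1 and Epor, were under 1 FPKM in every library, and the list summed to between 2.59 and 46.3 FPKM, of which Hbb-b1 was 0.473 to 34.5. Of 11 macrophage markers 8 were under 1 FPKM in every library, while none of the 14 neutrophil lineage markers and none of the 8 mast cell, basophil and eosinophil markers were. Of the other 3 macrophage markers, Csf1r rose per cell from 0 to 96 h (2.65 in WT and 2.74 in HMGN1-OE cells), from 0.324 to 1.13 FPKM in the 0 h libraries to 7.17 to 13.5 at 96 h, Emr1 fell (-1.61 and -2.28) and Cd68 was not called (-0.05 and 0.54). Relative to the median gene Csf1r and Cd68 rose in both genotypes. The macrophage list summed to 49.0 to 138 FPKM at 0 h, 35.6 to 128 at 36 h and 35.1 to 51.4 at 96 h. The neutrophil list summed to between 6068 and 16383 FPKM at 0 h and to between 67103 and 175257 at 96 h, where S100a8 alone was 29366 to 83718. Of its 14 genes 8 were higher and 6 lower per cell at 96 h in WT, and 10 higher and 3 lower in HMGN1-OE cells (all genes: 4.31% and 77.2%, and 5.08% and 62.4%). Ctsg went from 3711 to 7413 FPKM in the 0 h libraries to 20.6 to 479 at 96 h. S100a9 was listed at 0.0511 FPKM in 1 WT 96 h library, so a value near 0 in this table can be a failed estimate.

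At 0 h Alas1 was the most abundant of the members in both genotypes. Its values were 87.0 and 183 FPKM in WT libraries 0 and 1 and 104 and 69.4 in HMGN1-OE libraries 0 and 1. Urod, the cytosolic decarboxylase that makes coproporphyrinogen, followed at 37.4 to 78.3 FPKM, below Alas1 in each genotype without overlap. Fech, Cpox, Hmox1 and Ppox came next, with means from 13.9 to 33.2 FPKM, and each overlapped its neighbour among these 4 in both genotypes. Uros, which closes the porphyrin ring, and Alad, which makes the pyrrole unit, were lower, with means from 4.59 to 5.96 FPKM, and neither genotype separated them from each other.

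**Figure D1:**
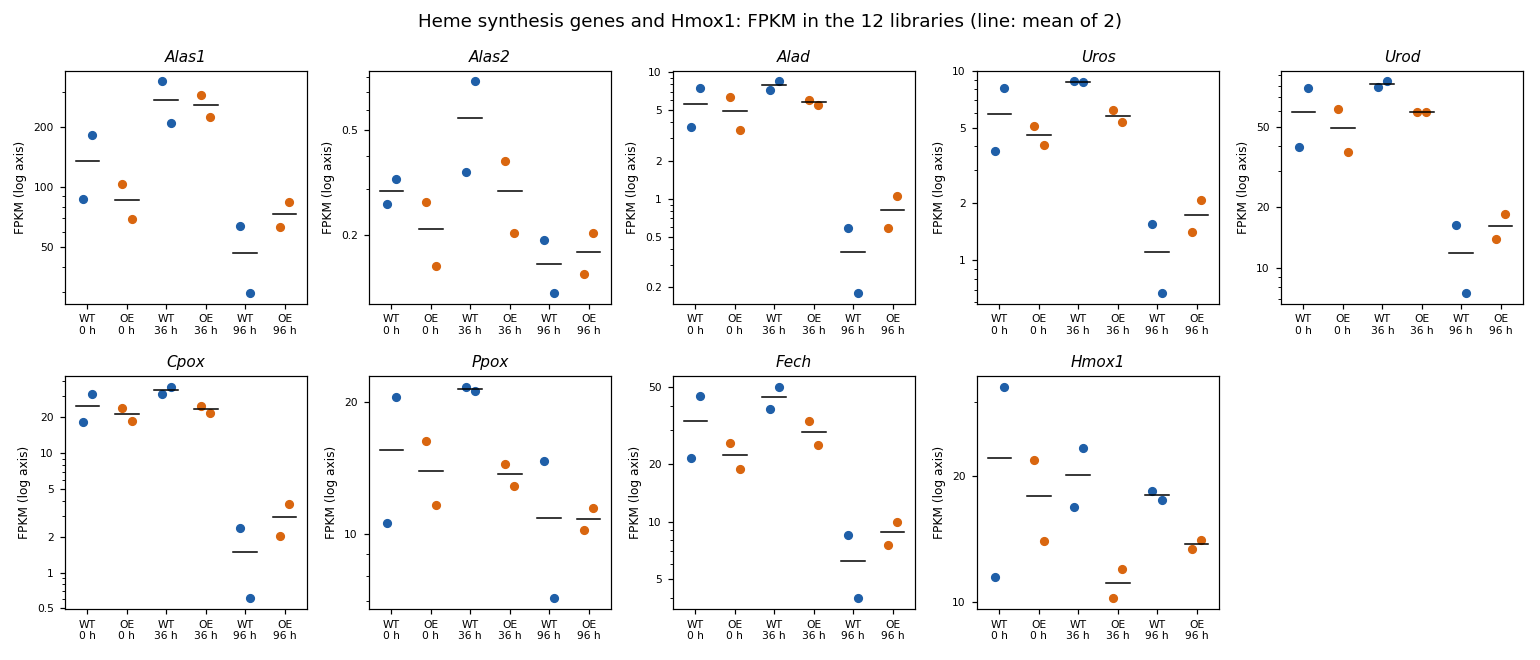
FPKM (log axis) of the 9 members in the 12 libraries by group, with blue points for WT, orange points for HMGN1-OE (OE) and a line at the mean of 2 libraries. Alas1 lies at 29.5 FPKM or more in every library and Alas2 at 0.769 or less. The 96 h libraries of Cpox, Alad, Urod, Fech and Uros lie below all their earlier ones, at a time when most genes had fallen per cell.

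Alas2 was under 1 FPKM in every library. Its values were 0.263 and 0.327 FPKM in WT 0 h, 0.349 and 0.769 in WT 36 h and 0.192 and 0.12 in WT 96 h libraries. In HMGN1-OE libraries it was listed at 0.268 and 0.152 at 0 h, 0.383 and 0.204 at 36 h and 0.142 and 0.203 at 96 h. The commonest value of low genes in these libraries was between 0.0967 and 0.105. Alas2 did not pass the filter on low values (at least 1 FPKM in at least 2 libraries) and was not tested, so 8 of the 9 members were tested. Within every library Alas1 exceeded Alas2 at least 245-fold. In the GENCODE vM21 annotation 15.3% of the exon bases of Alas2 are shared with Apex2 and 11.7% of those of Alas1 with 4930500F10Rik, both on the opposite strand, and the library kit does not mark strand.

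The first question was whether HMGN1 overexpression changed these genes at a given time. None of the 8 members was called between HMGN1-OE and WT cells at 0 h, where 1.36% of 11516 genes were called at an adjusted p under 0.05 by limma, in either direction. At 36 h (1.26% of all genes) and at 96 h (0.669%) the count was also 0 of 8, and no member had an unadjusted p under 0.05 at any time. limma without its trend and a linear model without moderation gave 0 of 8 as well, and so did the fit without WT 36 h library 1. The members' median difference on the log2(FPKM + 1) scale was -0.19 at 0 h, -0.52 at 36 h and 0.45 at 96 h, and that of all genes was -0.12, -0.54 and 0.36. The members' median turned on single libraries: at 0 h it ran from -0.70 without WT 0 h library 0 to 0.24 without WT 0 h library 1 (-0.47 and 0.069 without HMGN1-OE 0 h library 0 or 1), and at 96 h from 0.058 without WT 96 h library 1 to 0.83 without WT 96 h library 0 (0.26 without HMGN1-OE 96 h library 1). With 2 libraries a group, an exact permutation test of 1 gene cannot go below p = 0.333.

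Alas1 was not called between the genotypes at any time. At 0 h its difference was -0.57 (log2, SE 0.57, adjusted p = 1.0; -1.10 without WT 0 h library 0, -0.036 without WT 0 h library 1 and -0.28 without HMGN1-OE 0 h library 1), with the WT libraries at 87.0 and 183 FPKM and those of HMGN1-OE at 104 and 69.4. At 36 h it was -0.06 (SE 0.57, adjusted p = 0.933), or -0.40 without WT 36 h library 1, from 338 and 209 FPKM in WT and 290 and 225 in HMGN1-OE libraries. At 96 h it was 0.73 (SE 0.57, adjusted p = 0.859; 1.27 without WT 96 h library 0 and 0.18 without library 1), from 64.1 and 29.5 FPKM in WT and 62.9 and 84.3 in HMGN1-OE libraries. At each of the 3 times HMGN1-OE and WT libraries overlapped in FPKM. Relative to the median gene of its library, Alas1 was at 2.23 and 2.18 in HMGN1-OE and at 2.55 and 2.74 in WT libraries at 0 h (17.9% of genes were lower without overlap), and at 3.24 and 3.36 against 3.04 and 2.91 at 96 h (21.7% were higher without overlap). These differences of -0.44 and 0.33 were not called (adjusted p = 0.999 and 0.515).

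At 36 h Hmox1 had the largest difference of the 8 members, -0.79 (SE 0.51, adjusted p = 0.496). It was listed at 16.9 and 23.3 FPKM in WT and 10.2 and 12.04 in HMGN1-OE libraries, which do not overlap. At that time 84.4% of all genes had both HMGN1-OE libraries below both WT libraries. Without WT 36 h library 1 the difference was -0.56. Ppox (-0.62, SE 0.50), Fech (-0.59, SE 0.51), Uros (-0.53, SE 0.42) and Cpox (-0.52, SE 0.49) lay near the median of all genes and were not called. Without WT 36 h library 1 these 4 differences were -0.63, -0.40, -0.54 and -0.42, and the members' median was -0.42.

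**Figure D2:**
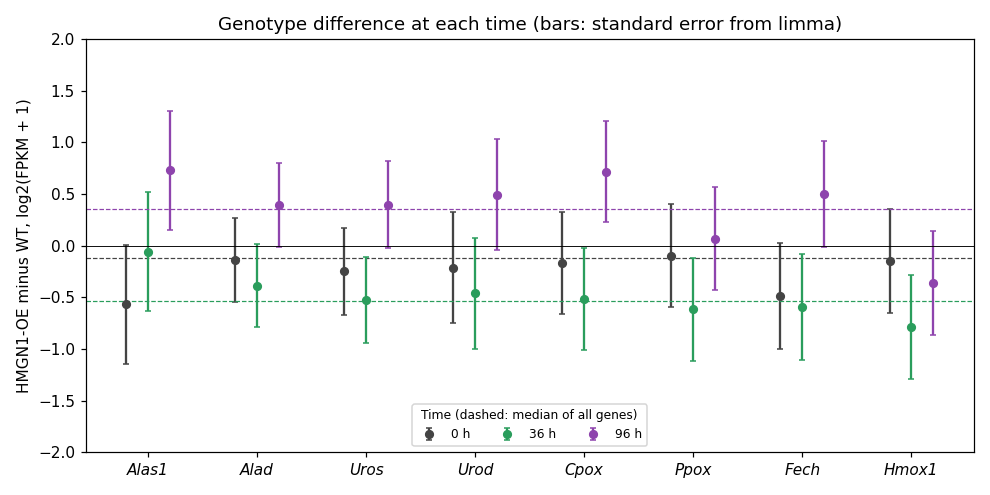
Difference between HMGN1-OE and WT cells on the log2(FPKM + 1) scale for the 8 tested members at 0, 36 and 96 h, with bars for the standard error from limma and dashed lines at the median of all genes (-0.12, -0.54 and 0.36). No member was called, and most points lie within 1 standard error of the dashed line of their time.

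The next question was what happened early in differentiation. From 0 to 36 h no member was called in WT cells (0 of 8, where 0.617% of all genes were called) or in HMGN1-OE cells (0 of 8, 1.8%), with or without WT 36 h library 1. Alas1 was the only member with an unadjusted p under 0.05, in HMGN1-OE cells. There it went from 104 and 69.4 to 290 and 225 FPKM, libraries that do not overlap (as in 14.3% of genes), a difference of 1.58 (log2, SE 0.57, adjusted p = 0.233). With only the 4 HMGN1-OE libraries of these times in the fit, the same difference was called (adjusted p = 0.00161). WT cells went from 87.0 and 183 to 338 and 209 FPKM, a difference of 1.07 (SE 0.57, adjusted p = 0.589), and with 1 library left out from 0.53 (without WT 0 h library 0) to 1.601 (without WT 0 h library 1), 1.41 without WT 36 h library 1 and 0.72 without WT 36 h library 0.

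Relative to the median gene of its library, Alas1 was higher by 1.55 at 36 h than at 0 h in HMGN1-OE cells (SE 0.26, adjusted p = 0.0559) and by 0.59 in WT cells (SE 0.26, adjusted p = 1.0), and neither was called. WT 36 h library 0 alone was at 3.72, against 2.55 and 2.74 in the WT 0 h libraries. On this scale all 4 libraries at 36 h lay above all 4 at 0 h, as for 5.51% of genes, but WT 36 h library 1, at 2.75, lay next to the highest 0 h library, at 2.74. The ratio of Alas1 to Fech within a library separated this library more plainly. Its values at 0 h were 4.09 and 4.06 in WT and 4.04 and 3.72 in HMGN1-OE libraries. The 36 h values were 8.65 and 8.96 in HMGN1-OE libraries and 8.74 in WT library 0, against 4.15 in WT library 1. At 96 h it was 7.51 and 7.41 in WT and 8.31 and 8.43 in HMGN1-OE libraries.

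The 2 WT libraries at 36 h also differed in markers of other granulocytes. The mast cell, basophil and eosinophil markers summed to 2792 FPKM in library 0 and 897 in library 1, while the HMGN1-OE libraries at 36 h had 1183 and 1211. Of the WT sums Cpa3 alone was 2013 and 554, while Prss34 was at 67.4 to 69.5 in both libraries. The part of these markers in the Alas1 result was not tested. Alas1 took a larger share of the members' RNA at 36 and 96 h than at 0 h. Of the summed FPKM of the 8 synthesis enzymes among the members (all but Hmox1) it made up 42.5 to 48.9% at 0 h, 49.9 to 66.7% at 36 h and 59.2 to 64.2% at 96 h, and Ppox, from 5.49 to 7.10% at 0 h, was higher only at 96 h, at 8.72 to 14.3%.

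**Figure D3:**
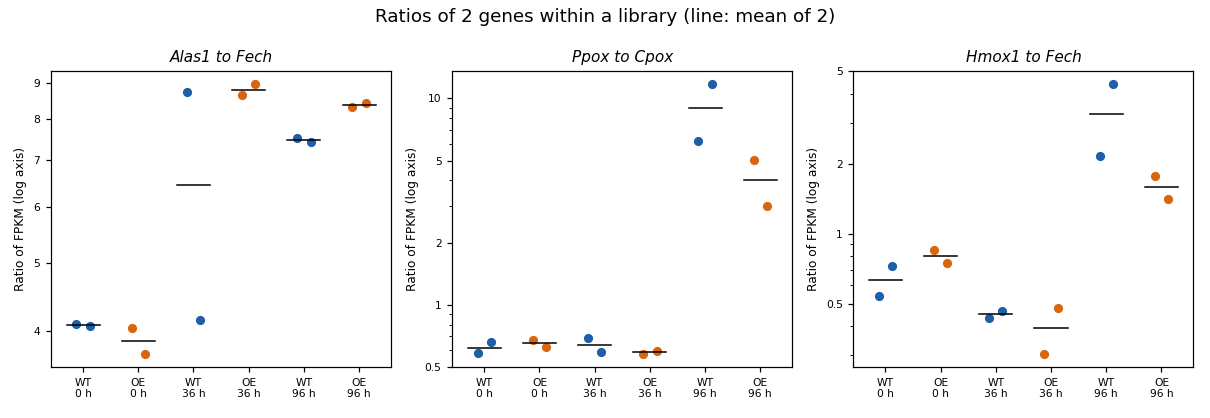
Ratio of Alas1 to Fech, Ppox to Cpox and Hmox1 to Fech within each of the 12 libraries (log axis), with blue points for WT, orange points for HMGN1-OE and a line at the mean of 2. Alas1 to Fech lies between 3.72 and 4.09 at 0 h and between 7.41 and 8.96 later except in 1 WT library at 36 h (4.15), and Ppox to Cpox lies above 3.01 only at 96 h.

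By 96 h most of the pathway had fallen per cell. In WT cells 6 of 8 members were lower at 96 h than at 0 h and none was higher, where 77.2% of all genes were called lower and 4.31% higher. In HMGN1-OE cells 5 of 8 were lower and none higher, where 62.4% of all genes were lower and 5.08% higher. Some HMGN1-OE calls of members were lost with 1 library left out, in fits that also called fewer of all genes. Only Alad and Cpox stayed called without HMGN1-OE 0 h library 0 or 96 h library 0, and only these and Urod without 96 h library 1. The members' median HMGN1-OE change ran from -1.31 to -0.96 with 1 library left out. The members' median change was -1.94 (log2) in WT and -1.13 in HMGN1-OE cells, and that of all genes was -1.75 and -1.28. A fall per cell was therefore shared with most genes, and a second scale was used in which each library was centred on its median gene.

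Cpox, the mitochondrial oxidase that makes protoporphyrinogen, fell most on both scales and in both genotypes. It was listed at 18.1 and 31.4 FPKM in WT 0 h libraries, 31.5 and 36.2 at 36 h and 2.35 and 0.606 at 96 h. In HMGN1-OE libraries it was listed at 24.1 and 18.6, then 25.0 and 21.7, then 2.03 and 3.79. The libraries at 96 h were far below all others. The change from 0 to 96 h was -3.42 (SE 0.49, adjusted p = 4.78e-11) in WT and -2.54 (SE 0.49, adjusted p = 2.08e-06) in HMGN1-OE cells. Against the median gene the changes were -1.58 (SE 0.13, adjusted p = 1.03e-05) in WT and -1.23 (SE 0.13, adjusted p = 5.52e-05) in HMGN1-OE cells.

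Alad, the zinc enzyme of the second step, went from 3.67 and 7.48 FPKM at 0 h to 0.586 and 0.18 at 96 h in WT cells. In HMGN1-OE cells it went from 6.32 and 3.46 to 0.583 and 1.04, and at 36 h all 4 libraries held between 5.51 and 8.43. It fell by 2.20 (SE 0.40, adjusted p = 2.85e-07) and by 1.67 (SE 0.40, adjusted p = 1.75e-04). On the centred scale it was not called with a pseudocount of 1 (-0.36 in both genotypes, SE 0.18, adjusted p = 0.106 and 0.113), which compresses values under 1 FPKM. With a pseudocount of 0.1 it was lower, by -1.56 in WT (adjusted p = 7.30e-05) and -1.01 in HMGN1-OE cells (adjusted p = 0.0011). Within libraries the ratio of Alas1 to Alad was 16.4 to 24.5 at 0 h and 80.7 to 164 at 96 h, with no overlap.

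Uros, Urod and Fech fell per cell with the bulk of the genes. Urod went from 39.6 and 78.3 to 16.3 and 7.47 FPKM in WT and from 61.5 and 37.4 to 13.9 and 18.4 in HMGN1-OE cells between 0 and 96 h, after 79.2 and 84.0 (WT) and 59.2 and 58.9 (HMGN1-OE) at 36 h. It fell by 2.23 (SE 0.54, adjusted p = 7.85e-05) and by 1.53 (SE 0.54, adjusted p = 0.00909). On the centred scale Urod was lower in WT (-0.39, SE 0.10, adjusted p = 0.0075) and not called in HMGN1-OE cells (-0.21, SE 0.10, adjusted p = 0.0912).

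Fech, which inserts iron to complete heme, was listed at 21.3 and 45.1 FPKM in WT 0 h libraries, 38.7 and 50.3 at 36 h and 8.53 and 3.98 at 96 h. The HMGN1-OE libraries had 25.7 and 18.7, then 33.5 and 25.1, then 7.57 and 10.002. It fell by 2.22 (SE 0.51, adjusted p = 3.95e-05) in WT and by 1.24 (SE 0.51, adjusted p = 0.026) in HMGN1-OE cells. Set against the median gene it was lower in WT (-0.37, SE 0.11, adjusted p = 0.0141) and was not called in HMGN1-OE cells (0.07, SE 0.11, adjusted p = 0.575). Uros went from 3.79 and 8.14 FPKM to 1.56 and 0.671 in WT and from 5.12 and 4.06 to 1.41 and 2.07 in HMGN1-OE cells, after 5.37 to 8.82 in the 4 libraries at 36 h. It fell by 1.68 (adjusted p = 1.40e-04) and by 1.03 (adjusted p = 0.0235) per cell, and was not called relative to the median gene (0.17 and 0.28).

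Alas1 fell per cell in WT cells and was not called in HMGN1-OE cells. The WT change from 0 to 96 h was -1.51 (SE 0.57, adjusted p = 0.0116), and it was not called without WT 0 h library 1 (-0.98) or without WT 96 h library 1 (-0.97). In HMGN1-OE cells it was -0.22 (SE 0.57, adjusted p = 0.738). Relative to the median gene Alas1 was higher at 96 h in HMGN1-OE cells (1.10, SE 0.26, adjusted p = 0.00499) and was not called in WT cells (0.33, SE 0.26, adjusted p = 0.271). The difference between the genotypes in this change, tested as an interaction, was 1.30 per cell (SE 0.81, adjusted p = 0.81, from 0.75 without WT 96 h library 1 and 0.76 without WT 0 h library 1 to 1.84 without WT 96 h library 0), and none of the 8 members was called in the interaction, where 0.677% of all genes were. No member had an unadjusted p under 0.05 there, and limma without its trend and a linear model without moderation also called 0 of 8.

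Ppox, the oxidase that follows Cpox and makes protoporphyrin, was not called per cell in either genotype, while most genes fell. It had 10.6 and 20.6 FPKM in WT 0 h libraries, 21.7 and 21.2 at 36 h and 14.7 and 7.11 at 96 h. The corresponding HMGN1-OE values were 16.3 and 11.6, then 14.5 and 12.9, then 10.2 and 11.4. The change from 0 to 96 h was -0.49 (SE 0.50, adjusted p = 0.354) in WT and -0.32 (SE 0.50, adjusted p = 0.562) in HMGN1-OE cells. On the centred scale Ppox rose by 1.36 (SE 0.11, adjusted p = 1.05e-05) and by 0.99 (SE 0.11, adjusted p = 7.81e-05), where 36.5% of all genes were called higher in WT and 30.9% in HMGN1-OE cells. On that scale 2 of 8 members were higher and 3 of 8 lower in WT cells (33.8% of all genes lower), and 3 of 8 higher and 1 of 8 lower in HMGN1-OE cells (32.5% lower). Without WT 0 h library 1 only Cpox, Ppox and Hmox1 of the WT members were called, in a fit that also called fewer of all genes.

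The ratio of Ppox to Cpox needs no scale between libraries. It lay between 0.578 and 0.69 in all 8 libraries at 0 and 36 h. At 96 h it was 6.24 and 11.7 in WT and 5.02 and 3.02 in HMGN1-OE libraries. The consecutive oxidases thus changed order in every library at 96 h. The ratio of 11.7 rests on Cpox at 0.606 FPKM, and neither gene was called between the genotypes.

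Hmox1 was not called per cell either. It was listed at 11.5 and 32.7 FPKM in WT 0 h libraries, 16.9 and 23.3 at 36 h and 18.4 and 17.5 at 96 h. In HMGN1-OE libraries it was listed at 21.8 and 14.02, then 10.2 and 12.04, then 13.4 and 14.1. The change from 0 to 96 h was -0.11 (SE 0.51, adjusted p = 0.834) in WT and -0.33 (SE 0.51, adjusted p = 0.563) in HMGN1-OE cells, and the WT change was 0.60 without WT 0 h library 1. Relative to the median gene Hmox1 rose by 1.73 (SE 0.28, adjusted p = 5.15e-04) in WT and by 0.99 (SE 0.28, adjusted p = 0.0131) in HMGN1-OE cells, the latter not called without HMGN1-OE 0 h library 1 or 96 h library 0. At 36 h it lay lower on this scale, all 4 libraries below all 4 at 0 h, as for 4.39% of genes, with changes of -0.46 in WT (adjusted p = 1.0) and -0.64 in HMGN1-OE cells (adjusted p = 0.332) that were not called. The WT libraries were at -0.27 and 0.29 at 0 h and at -0.53 and -0.36 at 36 h. Its ratio to Fech was 0.541 to 0.849 at 0 h, 0.305 to 0.479 at 36 h and 1.41 to 4.40 at 96 h.

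**Figure D4:**
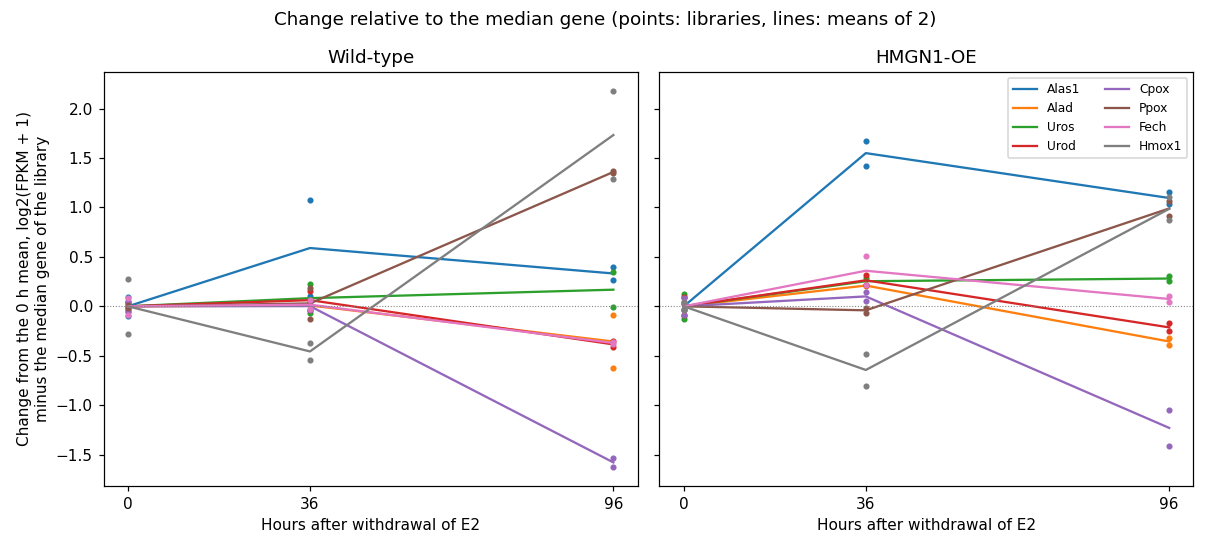
Change from the mean of the 0 h libraries in log2(FPKM + 1) relative to the median gene of each library, against hours after withdrawal of E2, in WT (left) and HMGN1-OE cells (right), with points for libraries and lines for means of 2. Ppox and Hmox1 end highest in WT cells (1.36 and 1.73) and Cpox lowest in both genotypes (-1.58 and -1.23), while Alas1 leads at 36 h in HMGN1-OE cells (1.55).

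By 96 h Cybb had risen in both genotypes and Mpo had fallen in WT cells, while the per-cell fall of Mpo in HMGN1-OE cells rested on single libraries. Mpo was listed at 2107 and 4406 FPKM in WT 0 h libraries, 7066 and 5507 at 36 h and 116 and 13.5 at 96 h. Among HMGN1-OE libraries it had 540 and 642, then 4147 and 2451, then 114 and 406. Its change from 0 to 96 h was -6.21 (SE 0.62, adjusted p = 1.10e-21) in WT and -1.45 (SE 0.62, adjusted p = 0.0308) in HMGN1-OE cells, the latter not called relative to the median gene (-0.13, adjusted p = 0.869). The HMGN1-OE change was not called without 0 h library 0 (-1.57), 0 h library 1 (-1.32) or 96 h library 0 (-0.54), and was -2.36 without 96 h library 1. Mpo was lower in HMGN1-OE cells at 0 h (-2.37, SE 0.62, adjusted p = 0.0109) and higher at 96 h (2.39, SE 0.62, adjusted p = 0.017). The first call was lost without any of HMGN1-OE 0 h library 0 (-2.24), HMGN1-OE 0 h library 1 (-2.49) or WT 0 h library 1 (-1.84), and both were lost on centred values. The call at 96 h was lost without WT 96 h library 1 (0.88) or HMGN1-OE 96 h library 1 (1.48).

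Set against Alas1, Mpo gave a ratio of 24.2 and 24.1 in WT libraries at 0 h and of 5.21 and 9.25 in HMGN1-OE libraries. At 36 h the ratio was 20.9 and 26.3 in WT and 14.3 and 10.9 in HMGN1-OE libraries. At 96 h it was 1.81 and 0.457 in WT and 1.81 and 4.81 in HMGN1-OE libraries.

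Cybb, the heme-binding subunit of cytochrome b558, was listed at 2.84 and 1.14 FPKM in WT 0 h libraries, 0.725 and 0.765 at 36 h and 270 and 100.3 at 96 h. HMGN1-OE libraries held 2.60 and 1.55, then 0.761 and 0.177, then 167 and 155. It rose by 5.85 (SE 0.47, adjusted p = 8.38e-33) in WT and by 5.74 (SE 0.47, adjusted p = 1.23e-31) in HMGN1-OE cells from 0 to 96 h. Cyba, its partner, was abundant from the start, with 144 and 306 FPKM in WT and 242 and 147 in HMGN1-OE libraries at 0 h. At 96 h it had 488 and 249 in WT and 398 and 459 in HMGN1-OE libraries, changes per cell of 0.73 (adjusted p = 0.248) and 1.18 (adjusted p = 0.0687) that were not called. On the centred scale Cyba rose by 2.57 (adjusted p = 1.83e-05) in WT and by 2.49 (adjusted p = 3.54e-05) in HMGN1-OE cells.

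A list of 15 genes held heme-carrying proteins and also Hccs, Cox10 and Cox15, enzymes that attach or modify heme. Of these 15, 2 were higher and 10 lower per cell at 96 h in WT, and 3 higher and 8 lower in HMGN1-OE cells (all genes: 4.31% and 77.2%, and 5.08% and 62.4%). Centred on the median gene, 4 were higher and 7 lower in WT, and 5 higher and 6 lower in HMGN1-OE cells (all genes: 36.5% and 33.8%, and 30.9% and 32.5%). Besides Cybb, the peroxidase of eosinophils, Epx, rose (5.51 in WT, 1.85 in HMGN1-OE cells), and besides Mpo, cytochrome c (Cycs) fell (-3.35 and -2.50). Epx is also one of the mast cell, basophil and eosinophil markers, which summed to 2520 and 1243 FPKM in WT and 322 and 1020 in HMGN1-OE libraries at 96 h. Of these sums Prg2 alone was 1970 and 933 in WT and 186 and 472 in HMGN1-OE libraries. The part of these cells was not tested.

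**Figure D5:**
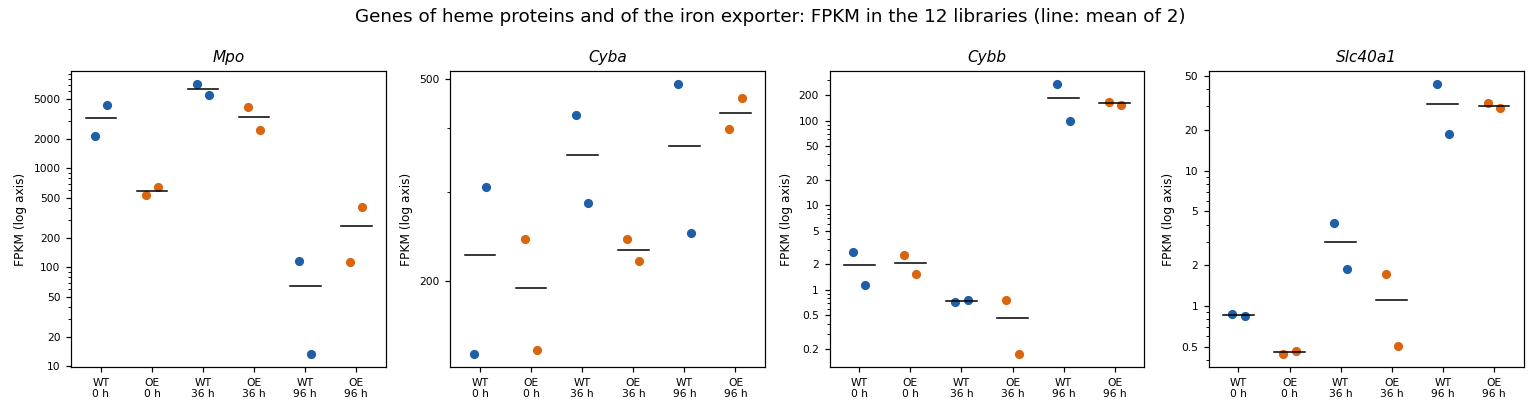
FPKM (log axis) of Mpo, Cyba, Cybb and the iron exporter Slc40a1 in the 12 libraries by group, with blue points for WT, orange points for HMGN1-OE and a line at the mean of 2. Mpo is highest at 36 h and between 13.5 and 406 at 96 h, while Cybb is at 2.84 or less before 96 h and at 100.3 or more at 96 h.

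Iron and precursors reach Fech and Alas1 through mitochondrial carriers. Of 17 genes of mitochondrial import and iron supply, all 17 were lower per cell at 96 h in WT (77.2% of all genes) and 15 in HMGN1-OE cells (62.4%). On the centred scale 9 were lower and 2 higher in WT, and 5 lower and 1 higher in HMGN1-OE cells. Of all genes 33.8% and 32.5% were lower and 36.5% and 30.9% higher on that scale. Steap3, the ferrireductase of the transferrin cycle, fell most (-4.50 in WT and -3.75 in HMGN1-OE cells), and Glrx5, needed for iron-sulfur clusters, fell by 3.28 and by 2.40. Slc25a38, the mitochondrial glycine carrier that feeds Alas1, rose relative to the median gene by 0.66 in WT (adjusted p = 0.00401) and 0.61 in HMGN1-OE cells (adjusted p = 0.00675), and Slc25a28, a mitochondrial iron carrier, by 0.33 in WT (adjusted p = 0.0269). The HMGN1-OE call of Slc25a38 was lost without HMGN1-OE 0 h library 0 or 96 h library 0, and that of Slc25a28 without either WT 0 h library or without WT 96 h library 0.

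Of 7 tested genes of heme degradation, export and iron storage, 1 was higher and 4 lower per cell at 96 h in WT, and 1 higher and 3 lower in HMGN1-OE cells (all genes: 77.2% and 62.4% lower, 4.31% and 5.08% higher). The gene that rose was Slc40a1, the iron exporter ferroportin, by 3.99 (SE 0.42, adjusted p = 6.17e-19) in WT and 4.41 (SE 0.42, adjusted p = 3.72e-23) in HMGN1-OE cells. At 0 h it had 0.879 and 0.851 FPKM in WT and 0.448 and 0.472 in HMGN1-OE libraries. At 96 h it was listed at 43.4 and 18.7 in WT and 31.6 and 28.7 in HMGN1-OE libraries, far above the earlier ones. The macrophage marker Csf1r also rose in both genotypes, and the part of macrophages in the change of Slc40a1 was not tested. The heme transporter Slc48a1 (-2.91 and -1.79) and the constitutive oxygenase Hmox2 (-2.50 and -1.76) fell, and both HMGN1-OE calls were lost without HMGN1-OE 0 h library 0 or 96 h library 0. Centred on the median gene, 4 of the 7 were higher and 2 lower in each genotype (all genes: 36.5% and 33.8% in WT, 30.9% and 32.5% in HMGN1-OE cells). The higher ones included Slc40a1 and Blvrb, a biliverdin reductase (2.33 in WT and 2.27 in HMGN1-OE cells).

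Of 10 regulators of heme and iron genes 8 were tested. In WT cells 1 was higher and 4 lower per cell at 96 h, and in HMGN1-OE cells 3 were lower (all genes: 77.2% and 62.4% lower, 4.31% and 5.08% higher). The iron regulatory proteins Aco1 (-2.58 in WT and -2.03 in HMGN1-OE cells) and Ireb2 (-2.09 and -1.62) fell, the HMGN1-OE call of Ireb2 being lost without the same libraries as that of Hmox2. Gata1 rose in WT cells (0.92, adjusted p = 0.00813), from 0.406 and 0.331 to 2.74 and 0.793 FPKM, but was not called without WT 96 h library 0 (0.39). At 96 h that library also had the largest sum of mast cell, basophil and eosinophil markers (2520 FPKM), and the part of these cells was not tested. Bach1, the heme-sensing repressor of Hmox1, was not called per cell (-0.25 and 0.03) and rose relative to the median gene by 1.601 in WT (adjusted p = 1.52e-04) and 1.35 in HMGN1-OE cells (adjusted p = 5.52e-04). Relative to the median gene 4 regulators were higher and 2 lower in each genotype (all genes: 36.5% and 33.8% in WT, 30.9% and 32.5% in HMGN1-OE cells).

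For members that ranged over at least 1 log2 unit across the 12 centred libraries, the 3 tested genes of most similar pattern were found by Pearson correlation, as a description over libraries that share group and normalization. For Alas1 they were Gpd2 (r = 0.968), Agps (0.958) and Dctn1 (0.952). For Cpox they were Rpp14, Aasdhppt and Mrps2 (0.997 each) and for Ppox Maml1, Peli1 (0.997 each) and Slc27a4 (0.996). For Hmox1 they were Ifnar2 (0.979), Slc6a6 (0.978) and Rgs2 (0.975). No other heme gene was among them. Alad, Uros, Urod and Fech ranged over less than 1 log2 unit.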

How the data were processed

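RNA-seq of 12 libraries was analysed as FPKM, a table deposited by the authors. Their methods describe alignment with Bowtie, RPKM per gene and loess normalization to ERCC RNAs, whereas the submitters' processing notes name HISAT, Cufflinks 2.0.0 and mm9. The conflict could not be resolved, so coordinates are given only for RefSeq promoters. In low values no step of whole reads was found, and no counts were recovered. A gene was tested if 2 libraries or more reached 1 FPKM (11516 of 23309), on log2(FPKM + 1) with limma 3.58.1 in R 4.3.3 (eBayes with trend, 6 group means, two-sided, Benjamini-Hochberg over all genes, threshold 0.05). The spread of a gene came from the trend over expression, except on centred values. A second scale subtracted the median of the tested genes from each library. The fits were tested on simulated data. Ratios and figures were made with Python 3.11.15, pandas 2.3.3 and matplotlib 3.10.9. Some genes of the lists are not reported here. Members and lists were chosen with earlier results of these data known. All members, Mpo, Cyba and Cybb are named, and of other lists up to 4 genes a comparison with the largest changes past the test. Slc40a1, Bach1 and Blvrb, and marker genes given as values, follow this rule or illustrate a list. Alternatives were pseudocounts of 0.1 and 0.01, other filters, centring, quantile normalization, rescaling to the ERCC RNAs, fewer libraries, other variance models and each library left out in turn.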

Additional observations from a re-analysis of the deposited data

Results flagged for a closer look

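The change of Mpo from 0 to 96 h differed between the genotypes: it was more negative in WT than in HMGN1-OE cells, by 4.76 on the log2(FPKM + 1) scale (SE 0.87, adjusted p = 1.65e-05 for the interaction in limma). Mpo went from 2107 and 4406 FPKM to 116 and 13.5 in WT and from 540 and 642 to 114 and 406 in HMGN1-OE cells. The difference was 3.25 without WT 96 h library 1 (adjusted p = 0.0189) and 4.23 on centred values (adjusted p = 0.422), where it was not called. No heme synthesis gene was flagged.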

How the results depend on the processing

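The genotype comparisons, the 0 to 36 h comparisons and the interaction called 0 members under each alternative run, except that 1 member (Alas1) was called in HMGN1-OE cells from 0 to 36 h when the fit held no other group's libraries. No paired analysis was possible because the columns carry no replicate number of the sample labels. The depth of the libraries is unknown, and with 2 libraries a group the standard errors rest on the other groups. A library left alone in its group was assumed to vary like the rest.

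The scaling decided the direction of several 0 to 96 h changes, by its construction, since most genes fell per cell. With centring and with quantile normalization, in this order, the WT changes became 0.33 and 0.61 for Alas1, 1.36 and 1.44 for Ppox and 1.73 and 1.90 for Hmox1, and with centring 0.17 for Uros. The HMGN1-OE changes became 1.10 and 1.29 for Alas1, 0.28 and 0.033 for Uros, 0.99 and 1.02 for Ppox, 0.074 and 0.12 for Fech and 0.99 and 1.04 for Hmox1. In the same way the 36 h genotype difference of Alas1 became 0.52 and 0.50, and the WT change of Hmox1 from 0 to 36 h became -0.46 and -0.42. On the values as deposited the WT changes were -1.51 for Alas1, -1.68 for Uros, -0.49 for Ppox and -0.11 for Hmox1, and the HMGN1-OE changes -0.22 for Alas1, -1.03 for Uros, -0.32 for Ppox, -1.24 for Fech and -0.33 for Hmox1. Without a filter the median gene lies near the floor, so centring does little: WT changes were -1.28 for Alas1, -1.45 for Uros and -0.26 for Ppox, and HMGN1-OE changes -0.074 for Alas1, -0.89 for Uros, -0.18 for Ppox, -1.09 for Fech and -0.18 for Hmox1. The centred WT change of Uros was -0.28 and -0.36 with pseudocounts of 0.1 and 0.01 and -0.29 with quantile normalization.

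Counts of all genes called moved by more than 1.5 times as follows, and the cause was not tested. Without a filter, 6, 15 and 15 genes were called between genotypes at 0, 36 and 96 h, 6 and 21 from 0 to 36 h in WT and HMGN1-OE cells, 8 in the interaction and 19627 in the centred WT change to 96 h. With a mean of at least 5 FPKM the first 5 counts were 85, 71, 51, 47 and 102. With centring they were 12, 6, 7, 1 and 15, with 4 in the interaction, and with quantile normalization 18, 7, 26, 1 and 35, with 4. limma without its trend gave 30, 28, 7, 4 and 58, with 14, and a linear model without moderation 3, 2, 2, 1 and 2, with 3. Only the libraries compared gave 100 and 11 between genotypes at 0 and 36 h, 41 and 492 from 0 to 36 h and 6075 in WT from 0 to 96 h. HMGN1-OE members called from 0 to 96 h were 3 without a filter, where 6403 of 23309 genes were called. They were 3 with a mean of at least 5 FPKM, where 6349 of 8921 genes were called.

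Leaving out 1 library at a time, the count of genes called ran from 86 to 277, 85 to 231 and 41 to 127 between genotypes at 0, 36 and 96 h, from 47 to 214 in WT and 103 to 154 in HMGN1-OE cells from 0 to 36 h, from 7299 to 9974 and 3868 to 7285 from 0 to 96 h, and from 54 to 136 in the interaction. On the centred scale it ran from 6913 to 8238 in WT and 5651 to 6459 in HMGN1-OE cells. Members called from 0 to 96 h ranged from 5 to 6 in WT and 2 to 5 in HMGN1-OE cells, and when centred from 3 to 6 and 3 to 4. The fewest centred WT calls, 3 (Cpox, Hmox1 and Ppox), came without WT 0 h library 1. The per-cell WT call of Alas1 was lost without WT 0 h library 1 or 96 h library 1. The direction of Hmox1 turned with a WT 0 h library: -0.86 to 0.56 between genotypes at 0 h, -0.69 to 0.74 in WT from 0 to 36 h and -0.83 to 0.60 from 0 to 96 h, each pair without WT 0 h library 0 and then without library 1. The 36 h genotype difference of Alas1 ran from -0.40 to 0.29, its HMGN1-OE change to 96 h from -0.50 to 0.068, the centred WT change of Uros from -0.0077 to 0.34 and the centred HMGN1-OE change of Mpo from -0.89 to 0.62.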
